A study of Rattus norvegicus with 24 samples.

Results

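The interaction of BRD0476 with inflammatory cytokines at 6 h asks, for each gene, whether cytokines changed its level by a different amount when the compound was present. It was computed on log2 intensities as the cytokine change with BRD0476 minus the cytokine change with the vehicle DMSO. A negative interaction means that the cytokine change was lower with BRD0476, and a positive one that it was higher. All 14217 genes that the array annotation names entered it, from 12 of the 24 arrays of the series, 3 for each of 4 groups. Every group was INS-1E, a rat insulinoma line that makes insulin and serves as a model of the pancreatic beta cell. The groups at 6 h were BRD0476 at 10 uM with cytokines, BRD0476 at 10 uM alone, DMSO with cytokines, and DMSO alone. The cytokine mixture held IL-1b at 10 ng/ml, IFN-g at 50 ng/ml and TNF-a at 25 ng/ml. The labels number 3 arrays in each group without saying that they came from separate cultures, so the p-values measure the spread between these samples, which may be technical, and the cells are those of 1 line. The other 12 arrays hold the same 4 groups at 12 h. They are used here for the spread of the fit, for gene lists chosen by their change at 12 h, and for the comparison of the times.

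IFN-g signals through its receptor and the kinases Jak1 and Jak2, and its early target genes often carry GAS elements in their promoters. Among them is Irf1, one of the interferon regulatory factors, which bind ISRE elements in a later wave of genes for virus defence, antigen presentation and T-cell attraction. IL-1b and TNF-a act mainly through NF-kB and MAP kinases and raise chemokines, adhesion molecules and the NF-kB inhibitor Nfkbia. In beta cells the mixture is known to cause stress signalling, loss of beta-cell functions and cell death. BRD0476 is known as a compound that protects cultured beta cells from these cytokines.

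At 6 h the interaction was called (limma, Benjamini-Hochberg adjusted p under 0.05 over all genes) for 4717 of 14217 genes, or 33.2%. It was higher for 2666 (18.8%) and lower for 2051 (14.4%). Both shares are the background for the counts of list members given below. Sizes of at least 1 on the log2 scale, which is a 2-fold difference between the cytokine fold changes, were reached downward by 507 genes (3.57%) and upward by 344 (2.42%). The largest interactions were more often negative: 111 genes were called at -2 or lower and 18 at 2 or higher. BRD0476 without cytokines moved few genes this far, with 3 called at least 2-fold higher and 5 at least 2-fold lower among 502 called. Cytokines moved 296 genes up and 50 down by at least 2-fold with BRD0476, and 887 up and 717 down with DMSO. The median interaction over all genes was -0.01, and every interaction given below without a p was called.

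Arrays of 1 group correlated with r between 0.992 and 0.999, and the beta-cell markers were present: 9 of 10 were measured, with group means between 7.27 for Nkx6-1 and 14.55 for Ins1, above the lower quartile of all values at 3.84. Replicate 3 of DMSO with cytokines stood apart from the other 2 of its group. It lay at least 0.5 below both of them for 44 of the 826 list genes measured, and limma's array weight, which is low for arrays that depart from their group, was 0.318 for it against 0.904 and 0.976 for the others. Replicate 2 of DMSO alone had a weight of 0.318 as well, and lay at least 0.5 below both others for 12 list genes and above for 10. Without it 5077 genes were called, 687 of them at -1 or lower and 371 at 1 or higher. Replicate 1 of BRD0476 alone was higher than both others by more than 0.5 for 7 of the 43 CXCR3 ligands, interferon-induced GTPases and antiviral genes, although it received no cytokines per its label. What a gene's level owes to these arrays was not tested beyond leaving them out. Values without replicate 3 of DMSO with cytokines or replicate 1 of BRD0476 alone stand beside the genes named here that they touch most. For replicate 2 of DMSO alone only the counts above are given. Adding 32 to each intensity before the logarithm, which compresses dim genes, moved the interaction of 21 of the 145 called genes named here by over 1.5 times and turned none.

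**Figure D1:**
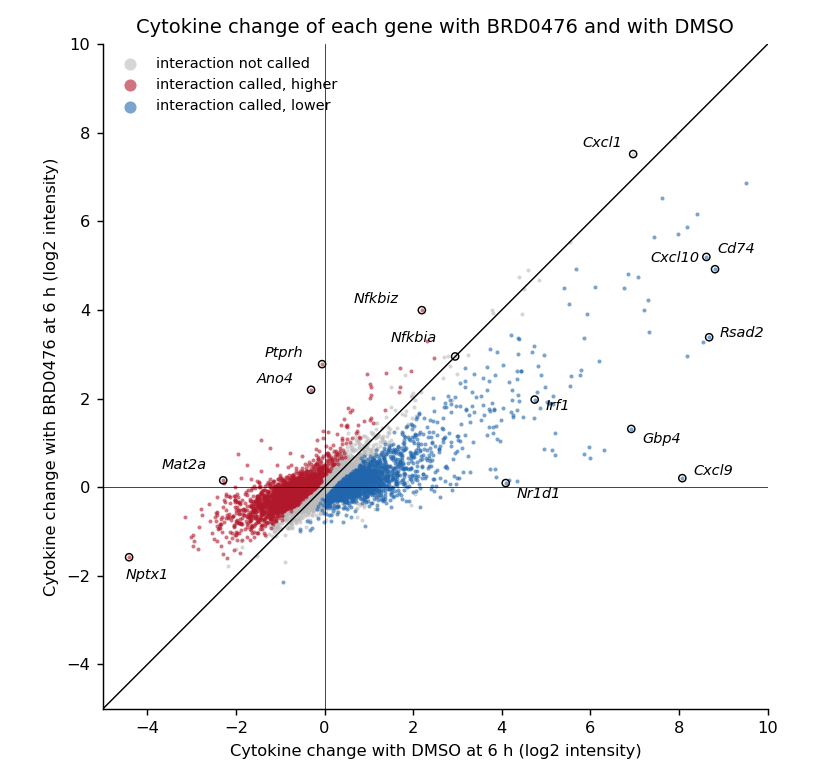
Each point is 1 of 14217 genes, with its cytokine change at 6 h with DMSO on the x axis and with BRD0476 on the y axis (both log2 intensity, mean of 3 arrays minus mean of 3). Red genes were called higher, blue ones lower and grey ones not called, and genes on the diagonal changed equally. Cxcl9 lies far to the right near 0 on the y axis, Nfkbia lies on the diagonal, and Ptprh and Ano4 lie above 0 on the y axis and near 0 on the x axis.

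Most of the 12 genes with the most negative interactions are known as interferon targets. In bulk RNA, a change in every cell and a change in the share of cells that respond cannot be told apart. Cxcl9, a chemokine that draws activated T cells, had log2 intensities of 4.21, 4.75 and 4.64 with BRD0476 and cytokines, 5.13, 3.98 and 3.89 with BRD0476 alone, 12.09, 12.06 and 12.16 with DMSO and cytokines, and 4.09, 4.04 and 3.96 with DMSO alone. The 3 arrays of DMSO with cytokines stood far above the other 9, and the groups with BRD0476 overlapped. The interaction was -7.87 ± 0.33 (adjusted p = 5.04e-13), or -7.47 without replicate 1 of BRD0476 alone. The cytokine change of Cxcl9 was 0.20 ± 0.23 with BRD0476 (adjusted p = 0.63) and 8.07 ± 0.23 with DMSO. The other 2 ligands of the receptor CXCR3 had smaller interactions. Cxcl10 had 10.11, 10.05 and 9.99 with BRD0476 and cytokines, 7.16, 3.90 and 4.33 with BRD0476 alone, 12.67, 12.88 and 12.90 with DMSO and cytokines, and 4.18, 3.90 and 3.94 with DMSO alone. Its levels with cytokines did not overlap between the compound and DMSO, and replicate 1 of BRD0476 alone lay well above the other unstimulated arrays. The interaction of Cxcl10 was -3.89 ± 0.67 (adjusted p = 0.000107) with this array and -2.88 without it. Cxcl11 still reached 12.65, 12.62 and 12.60 with BRD0476 and cytokines, against 13.58, 13.63 and 13.59 with DMSO and cytokines. Its interaction was -1.59 ± 0.40 (adjusted p = 0.00354), and -1.0 without replicate 1 of BRD0476 alone (adjusted p = 3.8e-05).

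All 6 measured interferon-induced GTPases, proteins that attack vacuoles of intracellular microbes, were called lower, with a median of -2.67 beside -0.01 over all genes. Gbp2 had 7.39, 7.26 and 7.24 with BRD0476 and cytokines, 5.57, 3.03 and 3.49 with BRD0476 alone, 11.96, 11.99 and 11.96 with DMSO and cytokines, and 3.70, 3.52 and 3.04 with DMSO alone. With cytokines its arrays did not overlap between BRD0476 and DMSO, and those with BRD0476 and cytokines lay above all unstimulated arrays. The interaction was -5.28 ± 0.54 (adjusted p = 1.69e-07), or -4.51 without replicate 1 of BRD0476 alone. Gbp4, of the same family, had a cytokine change of 1.31 with BRD0476 and 6.92 with DMSO, an interaction of -5.61 ± 0.20 (adjusted p = 3.56e-14). Igtp, a GTPase of the IRG family, had a cytokine change of 2.50 with BRD0476 and 5.56 with DMSO, an interaction of -3.05 ± 0.17.

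The antiviral effectors moved together: 34 of 34 measured members were called lower, 30 of them at -1 or lower, with a median interaction of -2.04 and a range between -5.35 and -0.17. Their median cytokine change was 1.15 with BRD0476 and 3.89 with DMSO. Rsad2, or viperin, which blocks virus replication, had 8.40, 8.41 and 8.48 with BRD0476 and cytokines, 6.65, 4.26 and 4.23 with BRD0476 alone, 13.17, 13.14 and 13.27 with DMSO and cytokines, and 4.0, 5.16 and 4.40 with DMSO alone. Its arrays with BRD0476 and cytokines lay between those of DMSO with cytokines and the unstimulated ones, without overlap. The interaction was -5.29 ± 0.58 (adjusted p = 4.65e-07), or -4.49 without replicate 1 of BRD0476 alone. Ifit2, which binds viral RNA, and Ifitm3, which blocks virus entry, had interactions of -5.35 ± 0.18 and -4.29 ± 0.24. Their cytokine changes with BRD0476 were 0.65 and 0.84, against 6.0 and 5.13 with DMSO. Outside the lists, the lowest values also included Ifgga2l1 at -5.22 ± 0.31 (-4.80 without replicate 1 of BRD0476 alone), RGD1309362 at -5.11 ± 0.35, Tmem140 at -5.07 ± 0.18 and Batf2, a bZIP transcription factor, at -4.21 ± 0.26. Areg, which encodes the EGF receptor ligand amphiregulin, had -4.47 ± 0.25. Its cytokine change was 0.72 with BRD0476 and 5.20 with DMSO.

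Within the interferon signalling chain, 12 of 25 measured members were called lower and 3 higher, with a median of -0.34. The lower members were led by the induced factors. Irf1, the early transcription factor of the interferon-g response, had 10.24, 10.27 and 10.16 with BRD0476 and cytokines, 8.62, 7.90 and 8.23 with BRD0476 alone, 12.95, 12.95 and 12.82 with DMSO and cytokines, and 8.17, 8.21 and 8.12 with DMSO alone. The 3 arrays with BRD0476 and cytokines lay above all unstimulated arrays and below all 3 of DMSO with cytokines. The interaction was -2.76 ± 0.16 (adjusted p = 4.36e-11), which is a cytokine fold change 6.79 times smaller with BRD0476. Irf7, a factor that amplifies antiviral transcription, had -3.34 ± 0.14, and Usp18, which removes ISG15 from proteins and restrains interferon receptors, had -3.21 ± 0.23. Jak2, the kinase on the interferon-g receptor, had a cytokine change of 0.53 with BRD0476 and 1.78 with DMSO, an interaction of -1.25 ± 0.19 (adjusted p = 3.47e-05). Socs1, a feedback inhibitor of JAK kinases, had 4.74, 3.90 and 4.66 with BRD0476 and cytokines, 4.33, 4.37 and 4.35 with BRD0476 alone, 6.14, 6.26 and 5.90 with DMSO and cytokines, and 4.19, 4.34 and 4.47 with DMSO alone. Its arrays with BRD0476 and cytokines overlapped with the unstimulated ones, and those with DMSO and cytokines stood above all others. Its interaction was -1.68 ± 0.29 (adjusted p = 9.34e-05), -0.94 as the mean of its 2 probe sets and -0.90 with the added 32.

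Antigen presentation genes were lower as well. Of the MHC class I processing genes 14 of 16 were called lower and none higher, with a median of -1.08. The peptide transporter genes Tap1 and Tap2 had -3.25 ± 0.13 and -2.51 ± 0.11, and Psmb9, a subunit of the immunoproteasome, had -1.81 ± 0.10. Tap1 came to -1.72 as the mean of its 2 probe sets. Of the class II genes 7 of 9 were called lower, with a median of -2.89. Cd74, the invariant chain that guides class II molecules, had 9.02, 8.92 and 9.10 with BRD0476 and cytokines, 3.79, 3.65 and 4.01 with BRD0476 alone, 12.19, 12.10 and 12.06 with DMSO and cytokines, and 3.46, 3.38 and 3.66 with DMSO alone. With BRD0476 and cytokines it lay above all unstimulated arrays and below all 3 of DMSO with cytokines. The interaction was -3.42 ± 0.18 (adjusted p = 1.75e-11). RT1-Bb, a class II beta chain, had 6.24, 6.19 and 6.31 with BRD0476 and cytokines, against 10.45, 10.23 and 9.38 with DMSO and cytokines. Replicate 3 of DMSO with cytokines was the lowest there, and the groups still did not overlap. The interaction of RT1-Bb was -3.97 ± 0.33, -4.29 without that array and -2.07 as the mean of its 2 probe sets. RT1-DMb, which helps load class II peptides, had -3.17 ± 0.23.

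The complement list was mixed, with 4 of 12 called lower and 3 higher and a median of -0.13, whose sign turned when dim genes were left out. The 3 lower members named here belong to the classical pathway. The protease C1s had 4.92, 4.54 and 4.57 with BRD0476 and cytokines, 3.94, 3.60 and 3.94 with BRD0476 alone, 10.20, 10.23 and 10.15 with DMSO and cytokines, and 4.04, 3.89 and 3.72 with DMSO alone. The 3 arrays of DMSO with cytokines were far above all others, and the interaction was -5.46 ± 0.18 (adjusted p = 1.72e-14). C1r, the partner protease, had -3.23 ± 0.20, and Serping1, the inhibitor of both, had -3.13 ± 0.24.

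**Figure D2:**
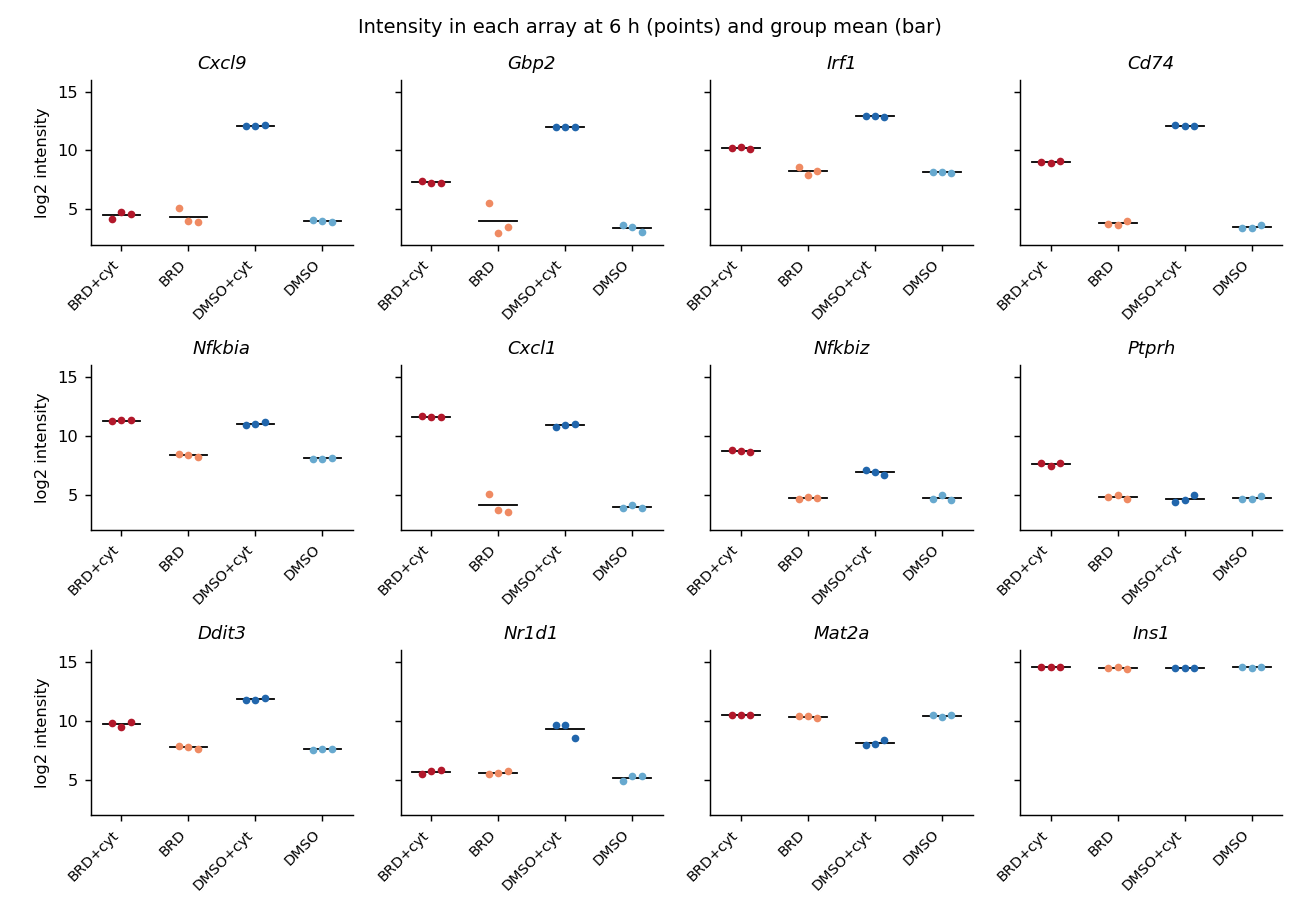
Log2 intensity (y axis) of 12 genes in the 12 arrays at 6 h, with a bar at each group mean. From left to right the groups are BRD0476 with cytokines (BRD+cyt), BRD0476 alone (BRD), DMSO with cytokines (DMSO+cyt) and DMSO alone (DMSO); Cxcl9 with BRD0476 and cytokines stayed at 4.54 on average against 12.10 with DMSO and cytokines, while Nfkbia reached 11.28 and 11.01.

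Genes of the NF-kB arm did not move as 1 block. Nfkbia, which encodes the inhibitor that NF-kB itself raises, had 11.24, 11.28 and 11.31 with BRD0476 and cytokines, 8.40, 8.36 and 8.21 with BRD0476 alone, 10.90, 10.95 and 11.19 with DMSO and cytokines, and 8.03, 8.05 and 8.12 with DMSO alone. Each BRD0476 group was slightly above its DMSO counterpart, and cytokines raised the gene in both settings. The interaction was 0.00 ± 0.12 (adjusted p = 0.987), with cytokine changes of 2.95 ± 0.08 with BRD0476 and 2.95 ± 0.08 with DMSO. Cxcl1, a neutrophil chemokine, had 11.64, 11.59 and 11.61 with BRD0476 and cytokines, 5.05, 3.68 and 3.55 with BRD0476 alone, 10.77, 10.88 and 11 with DMSO and cytokines, and 3.83, 4.08 and 3.86 with DMSO alone. All 3 arrays with BRD0476 and cytokines lay above those with DMSO and cytokines, and replicate 1 of BRD0476 alone was above the other unstimulated arrays. Its interaction of 0.55 ± 0.33 was not called (adjusted p = 0.223), and without that array it was 1.03 (adjusted p = 1.68e-05).

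Nfkbiz, an inducible nuclear partner of NF-kB, had 8.76, 8.72 and 8.61 with BRD0476 and cytokines, 4.62, 4.79 and 4.69 with BRD0476 alone, 7.10, 6.91 and 6.64 with DMSO and cytokines, and 4.58, 4.97 and 4.51 with DMSO alone. Cytokines raised it in both settings, and the 2 stimulated groups did not overlap. The interaction was 1.80 ± 0.18 (adjusted p = 1.03e-07), and 0.99 as the mean of its 2 probe sets. Tnf, which encodes the cytokine TNF-a itself, had 7.35, 7.42 and 7.34 with BRD0476 and cytokines, 4.82, 5.03 and 4.19 with BRD0476 alone, 6.63, 6.21 and 6.35 with DMSO and cytokines, and 4.67, 4.59 and 4.82 with DMSO alone. The stimulated groups did not overlap, and the unstimulated ones did. Its interaction was 0.99 ± 0.25 (adjusted p = 0.00354), and 0.37 as the mean of its 2 probe sets, where it was not called (adjusted p = 0.289).

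Other NF-kB genes were lower. In the list of NF-kB subunits and feedback inhibitors 5 of 15 were called lower and 1 higher, with a median of -0.28. Relb, a subunit of the alternative pathway, had -1.32 ± 0.22 (adjusted p = 9.72e-05), and Nfkbib, another inhibitor of the family, had -1.12 ± 0.25, or -1.34 without replicate 3 of DMSO with cytokines. The adhesion gene Icam1 had 9.37, 9.26 and 9.27 with BRD0476 and cytokines, 5.02, 4.17 and 4.27 with BRD0476 alone, 11.20, 11.22 and 10.73 with DMSO and cytokines, and 4.15, 4.08 and 4.39 with DMSO alone. Its stimulated groups did not overlap, and both lay far above the unstimulated arrays. The interaction was -2.03 ± 0.26 (adjusted p = 3.4e-06), or -1.76 without replicate 1 of BRD0476 alone. With Icam1, 7 of 11 genes of adhesion and costimulation were called lower and none higher, among them Cd40 at -0.90 ± 0.26 and Tnfrsf14 at -1.26 ± 0.23 (-0.74 with the added 32). Sod2, the mitochondrial superoxide dismutase, reached 12.76 ± 0.02 with BRD0476 and cytokines and 13.32 ± 0.06 with DMSO and cytokines (SD, n = 3 each), an interaction of -0.47 ± 0.11 (adjusted p = 0.00216).

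Promoters of genes from both arms are shown because the members above differ in the elements their known factors bind. Sequences are those of RefSeq (GRCr8), 250 bases before to 50 after each gene's start, found for 11700 of the 14217 genes and for 111 of the 153 genes named here. Capitals mark matches on either strand to GAS (TTCNNNGAA), the ISRE core (GAAANNGAA) and the NF-kB core (GGGANTTTC); none of the matches shown overlap. Cxcl9 (chr14:16006916-16007215, plus strand) holds an NF-kB core and then a GAS match, Gbp2 (chr2:234005477-234005776, plus strand) an ISRE core, and Irf1 (chr10:38417685-38417984, plus strand) a GAS match. Nfkbia (chr6:78597023-78597322, minus strand) holds 2 NF-kB cores with an ISRE core between them, and Nfkbiz (chr11:58251471-58251770, plus strand) and Cxcl1 (chr14:17479272-17479571, minus strand) hold an NF-kB core each.
Cxcl9: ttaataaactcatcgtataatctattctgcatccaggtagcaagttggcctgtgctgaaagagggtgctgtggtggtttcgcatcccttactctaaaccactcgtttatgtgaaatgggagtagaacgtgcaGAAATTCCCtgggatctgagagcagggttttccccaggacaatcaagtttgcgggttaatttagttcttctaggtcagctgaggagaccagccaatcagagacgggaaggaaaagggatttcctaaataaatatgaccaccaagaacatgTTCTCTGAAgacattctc
Gbp2: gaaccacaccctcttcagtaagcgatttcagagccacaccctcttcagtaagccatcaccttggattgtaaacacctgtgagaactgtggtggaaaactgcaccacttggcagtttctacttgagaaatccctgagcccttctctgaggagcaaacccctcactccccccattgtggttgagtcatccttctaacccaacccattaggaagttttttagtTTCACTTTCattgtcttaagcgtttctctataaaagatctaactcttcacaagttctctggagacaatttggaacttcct
Irf1: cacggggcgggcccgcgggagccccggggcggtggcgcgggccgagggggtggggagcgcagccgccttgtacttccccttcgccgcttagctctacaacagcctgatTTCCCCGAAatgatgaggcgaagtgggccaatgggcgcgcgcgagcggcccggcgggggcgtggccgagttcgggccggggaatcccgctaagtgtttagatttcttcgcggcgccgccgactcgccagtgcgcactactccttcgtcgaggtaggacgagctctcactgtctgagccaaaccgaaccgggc
Nfkbia: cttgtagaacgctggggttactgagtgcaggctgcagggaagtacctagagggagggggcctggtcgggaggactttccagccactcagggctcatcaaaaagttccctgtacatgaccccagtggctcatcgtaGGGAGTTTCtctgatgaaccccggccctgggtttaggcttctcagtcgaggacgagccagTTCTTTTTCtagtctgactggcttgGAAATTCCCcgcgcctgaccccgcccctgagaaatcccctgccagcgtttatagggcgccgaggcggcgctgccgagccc
Nfkbiz: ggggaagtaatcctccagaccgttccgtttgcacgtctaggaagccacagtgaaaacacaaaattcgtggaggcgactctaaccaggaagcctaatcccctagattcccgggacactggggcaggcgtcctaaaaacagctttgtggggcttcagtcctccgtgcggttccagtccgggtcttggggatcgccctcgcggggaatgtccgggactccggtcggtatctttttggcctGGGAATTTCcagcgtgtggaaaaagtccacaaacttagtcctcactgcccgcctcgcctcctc
Cxcl1: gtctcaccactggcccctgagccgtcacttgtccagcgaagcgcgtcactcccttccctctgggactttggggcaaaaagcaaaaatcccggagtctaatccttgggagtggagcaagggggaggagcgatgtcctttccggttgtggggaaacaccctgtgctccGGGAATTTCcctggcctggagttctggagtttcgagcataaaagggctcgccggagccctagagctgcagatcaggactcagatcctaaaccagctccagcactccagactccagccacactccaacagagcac
Among genes called at -1 or lower, 76 of 409 with a promoter (18.6%) held the ISRE core, against 15 of 285 (5.26%) of those called at 1 or higher, 7.19% of all tested genes and 9.50% of all promoters in the table. GAS was in 10.3% of the genes at -1 or lower and in 4.91% of those at 1 or higher, against 6.99% of tested genes and 8.68% of all promoters. The NF-kB core was in 2.20% of the genes at -1 or lower and in 1.75% of those at 1 or higher, against 1.21% of tested genes and 1.13% of all promoters. By list, 17 of 24 antiviral promoters and 9 of 13 MHC class I promoters held the ISRE core, against 1 of 7 for MHC class II and 0 of 8 for complement. Ribosomal protein genes, of which none was called, held it in 5 of 17. In the NF-kB list 5 of 12 held the NF-kB core. Promoters of the lower genes Psmb9, Cd74, RT1-Bb and C1r held no match to GAS, the ISRE core or the NF-kB core. Only these letter patterns were searched, so other forms of the elements are left unmarked. A match is a description of these letters and not of a bound site.

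Among ligands, more genes were called lower than higher. Of 16 chemokines and colony-stimulating factors for myeloid cells 5 were called lower and none higher. Ccl5, which attracts T cells and monocytes, had 4.62, 4.65 and 4.69 with BRD0476 and cytokines, 4.42, 4.96 and 4.75 with BRD0476 alone, 7.50, 7.17 and 7.46 with DMSO and cytokines, and 4.89, 4.30 and 4.32 with DMSO alone. The arrays with BRD0476 and cytokines lay within the unstimulated range, and the interaction was -2.93 ± 0.24 (adjusted p = 7.46e-09; -1.88 with the added 32). The chemokines Cxcl16 and Ccl2 had -1.52 ± 0.10 and -1.27 ± 0.18 (-0.54 with the added 32). Of 18 cytokine ligands 8 were called lower and 3 higher. Il15, which sustains natural killer and memory T cells, had 7.50, 7.37 and 7.35 with BRD0476 and cytokines, 7.39, 7.44 and 7.30 with BRD0476 alone, 10.03, 10.21 and 9.84 with DMSO and cytokines, and 7.41, 7.98 and 7.44 with DMSO alone. Its 3 arrays of DMSO with cytokines stood above all others, an interaction of -2.39 ± 0.17 (adjusted p = 1.16e-09). The death ligand Tnfsf10, or TRAIL, had -2.17 ± 0.25, and the lymphocyte growth factor Il7 had -1.69 ± 0.26 (-1.03 with the added 32). In IL-1 and TNF receptor signalling 12 of 25 were called lower and 4 higher. The kinases Irak2 and Ripk2 had -1.54 ± 0.18 (-1.02 with the added 32) and -1.39 ± 0.23 (-1.18 without replicate 1 of BRD0476 alone), and the receptor chain Il1rap had -1.25 ± 0.15, -0.55 as the mean of its 2 probe sets.

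Genes of the ATF4 and CHOP stress arm, which answers amino acid shortage and misfolded protein, were lower in 21 of 25 measured members and higher in none. Their median interaction was -0.85, from median cytokine changes of 0.20 with BRD0476 and 1.02 with DMSO. Ddit3, or CHOP, a factor tied to cell death in stressed beta cells, had 9.79, 9.49 and 9.86 with BRD0476 and cytokines, 7.87, 7.79 and 7.56 with BRD0476 alone, 11.75, 11.79 and 11.93 with DMSO and cytokines, and 7.52, 7.63 and 7.61 with DMSO alone. Its stimulated groups did not overlap with each other or with the unstimulated arrays. The interaction was -2.26 ± 0.15 (adjusted p = 3.4e-10). The stress factor Atf3 had -2.49 ± 0.26, and Trib3, a pseudokinase that CHOP raises, had -2.33 ± 0.16.

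Related lists followed in part. Of the cytosolic aminoacyl-tRNA synthetases, which load amino acids onto tRNA and include ATF4 targets, 13 of 18 were called lower and none higher. Wars1, which interferon-g also raises, had -1.33 ± 0.11, Kars1 had -1.24 ± 0.09 (-0.76 as the mean of its 2 probe sets) and Vars1 had -1.04 ± 0.17 (-0.54). Amino acid transporters split, with 8 of 24 called higher and 7 lower. Slc3a2, the shared chain of several of them, had -1.15 ± 0.09. The glycine transporter gene Slc6a9 had 7.05, 7.02 and 7.15 with BRD0476 and cytokines, against 9.47, 9.24 and 7.76 with DMSO and cytokines. Replicate 3 of DMSO with cytokines was its lowest stimulated array with DMSO, and the groups did not overlap. The interaction of Slc6a9 was -2.15 ± 0.40, or -2.68 without that array. The list of chaperones and other protein folding and stress genes of the endoplasmic reticulum had 7 of 24 called lower and 3 higher, with a median of -0.08. Dnajb9 and Herpud1, both raised when unfolded protein builds up, had -1.38 ± 0.20 and -1.03 ± 0.13, and Xbp1, a factor of the same response, had -0.49 ± 0.14. Hspa5, the main chaperone of that compartment, had -0.16 ± 0.08 and was not called (adjusted p = 0.139).

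Several genes of cell death were called lower. Of the death receptors and caspases 6 of 16 were called lower and 2 higher, and the highest value was 0.83 for the caspase gene Casp6. Casp12, a caspase linked to stress of the endoplasmic reticulum in rodents, had 4.48, 4.34 and 4.50 with BRD0476 and cytokines, 4.46, 4.35 and 4.43 with BRD0476 alone, 6.56, 6.93 and 6.78 with DMSO and cytokines, and 4.22, 3.97 and 4.55 with DMSO alone. The arrays with BRD0476 and cytokines lay within the unstimulated range, and the interaction was -2.49 ± 0.20 (adjusted p = 4.85e-09; -1.45 with the added 32). Casp4 and Gsdmd, a caspase and the pore protein of inflammatory death, had -2.09 ± 0.18 and -1.23 ± 0.19. Fas, the death receptor, had -0.46 ± 0.15 (adjusted p = 0.0258) from its brightest probe set, while the mean of its 3 probe sets gave 0.08 (adjusted p = 0.618).

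The BCL2 family split evenly, with 5 of 17 called in each direction. The lower ones named here promote death. The roles of the 5 higher members were not compared, and the highest value in the list was 0.54 for Bnip3. Bbc3, or PUMA, had 8.04, 8.04 and 8.16 with BRD0476 and cytokines, 7.55, 7.60 and 7.79 with BRD0476 alone, 9.73, 9.76 and 9.35 with DMSO and cytokines, and 7.80, 7.69 and 7.99 with DMSO alone. Its arrays with DMSO and cytokines were above all others, an interaction of -1.35 ± 0.14 (adjusted p = 2.08e-07). Hrk had -1.29 ± 0.18, and Bak1 had -1.69 ± 0.47, or -2.14 without replicate 3 of DMSO with cytokines. Of the p53 targets 8 of 15 were called lower and 2 higher, with a median of -0.38. Tp53inp1, a stress protein, had -1.86 ± 0.22, -0.88 with the added 32. Cdkn1a, the cell cycle inhibitor p21, had -1.36 ± 0.29, or -1.61 without replicate 3 of DMSO with cytokines.

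Of the 12 largest positive interactions, 10 belonged to genes that cytokines lowered with DMSO. Mat2a, which makes the methyl donor S-adenosylmethionine, had 10.49, 10.48 and 10.49 with BRD0476 and cytokines, 10.37, 10.37 and 10.24 with BRD0476 alone, 7.98, 8.03 and 8.40 with DMSO and cytokines, and 10.45, 10.34 and 10.48 with DMSO alone. The 3 arrays of DMSO with cytokines lay below all 9 others. The interaction was 2.44 ± 0.14 (adjusted p = 4.36e-11), and 1.40 as the mean of its 3 probe sets. Stc1, a secreted hormone of calcium and phosphate balance, had a cytokine change of 0.10 with BRD0476 (adjusted p = 0.448) and -2.26 with DMSO, an interaction of 2.36 ± 0.11. Nptx1, a secreted pentraxin of neurons and endocrine cells, was lowered in both settings, with a cytokine change of -1.58 with BRD0476 and -4.41 with DMSO, an interaction of 2.83 ± 0.13. The peptide transporter Slc15a2 had 2.47 ± 0.18, the lipoprotein receptor Lrp8 2.30 ± 0.16, the lipid transporter Mfsd2a 2.22 ± 0.15, and Fgl2 and Ccnyl1 2.25 ± 0.10 and 2.20 ± 0.20. With the added 32, Slc15a2 came to 1.45 and Ccnyl1 to 1.39.

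For the other 2, Ptprh and Ano4, cytokines raised the gene at 6 h with BRD0476 and no change was called with DMSO. At 12 h Ano4 was among the genes that cytokines raised at least 2-fold with DMSO. Ptprh, a receptor tyrosine phosphatase, had 7.70, 7.39 and 7.64 with BRD0476 and cytokines, 4.75, 5.0 and 4.65 with BRD0476 alone, 4.40, 4.52 and 5.0 with DMSO and cytokines, and 4.64, 4.58 and 4.86 with DMSO alone. Its arrays with BRD0476 and cytokines stood above the other 9, which overlapped. The interaction was 2.83 ± 0.22 (adjusted p = 3.54e-09), with cytokine changes of 2.78 ± 0.15 with BRD0476 and -0.06 ± 0.15 with DMSO (adjusted p = 0.797). Ano4, of the anoctamin family of membrane proteins, had 7.78, 7.96 and 7.79 with BRD0476 and cytokines, 5.81, 5.35 and 5.78 with BRD0476 alone, 5.42, 5.22 and 5.29 with DMSO and cytokines, and 5.52, 5.95 and 5.38 with DMSO alone. Here too the stimulated BRD0476 arrays stood alone, and the interaction was 2.50 ± 0.20 (adjusted p = 7.04e-09). Eeig2 and C2cd4a, the second an inflammation-linked gene of beta cells, were raised with BRD0476 and lowered with DMSO. The cytokine change of Eeig2 was 0.76 with BRD0476 and -1.96 with DMSO, and that of C2cd4a was 1.06 and -1.43 in the same order.

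Cholesterol synthesis had the highest median of the 42 lists, 0.75, and 17 of 20 members were called higher and none lower. Their median cytokine change was -0.08 with BRD0476 and -0.80 with DMSO. Sqle, which commits squalene to sterols, had 10.61, 10.59 and 10.56 with BRD0476 and cytokines, 10.65, 10.52 and 10.59 with BRD0476 alone, 9.72, 9.73 and 9.76 with DMSO and cytokines, and 10.98, 11.01 and 10.90 with DMSO alone. The arrays of DMSO with cytokines were the lowest, those of DMSO alone the highest, and both BRD0476 groups overlapped between them. The interaction was 1.22 ± 0.09 (adjusted p = 1.34e-09), and BRD0476 alone lowered the gene (adjusted p = 0.000935). Acat2, an acetyl-CoA acetyltransferase, had 1.58 ± 0.14, and Lss, lanosterol synthase, had 1.06 ± 0.09 (0.67 as the mean of its 2 probe sets). Fatty acid genes were higher in 13 of 29 and lower in 3, with the elongase Elovl6 at 1.83 ± 0.14, the desaturase Fads1 at 1.23 ± 0.08 and the desaturase Scd2 at 1.16 ± 0.10.

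Mitosis and spindle genes were higher in 25 of 29, with none lower and a median of 0.70. Their median cytokine change was -0.39 with BRD0476 and -1.12 with DMSO. Kif20a, a motor protein of cell division, had 10.10, 10.11 and 10.03 with BRD0476 and cytokines, 10.51, 10.39 and 10.33 with BRD0476 alone, 8.99, 8.78 and 9.16 with DMSO and cytokines, and 10.59, 10.41 and 10.56 with DMSO alone. Both stimulated groups lay below the unstimulated arrays, that with DMSO the further. The interaction was 1.21 ± 0.12 (adjusted p = 1.27e-07). Cdkn2c, an inhibitor of G1 kinases that was placed in this list, had 1.20 ± 0.10, and Cenpa, the centromeric histone, had 1.14 ± 0.21. Cdkn2c came to 0.71 as the mean of its probe sets, and Cenpa to 0.69 with the added 32 and 0.92 without replicate 3 of DMSO with cytokines. Replication and G1/S genes were higher in 12 of 30 and lower in 2. The cyclin genes Ccne1 and Ccne2 had 0.61 ± 0.10 and 0.64 ± 0.12, whereas Ccnd1 had -0.83 ± 0.16 (-0.47 with the added 32).

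Subunits of the respiratory chain, encoded in the nucleus, showed smaller positive interactions in many members: 24 of 38 were called higher and 1 lower, with a median of 0.28. Ndufa4 had 13.11, 13.08 and 13.07 with BRD0476 and cytokines, 13.18, 13.15 and 13.16 with BRD0476 alone, 12.28, 12.27 and 12.24 with DMSO and cytokines, and 13.10, 13.10 and 13.13 with DMSO alone. The arrays of DMSO with cytokines lay below all others, and the interaction was 0.77 ± 0.07 (adjusted p = 1.36e-08). The complex I subunits Ndufa2 and Ndufb3 had 0.71 ± 0.11 and 0.68 ± 0.10. Glycolysis was mixed, 4 of 25 higher (16%) and 5 lower (20%), beside 18.8% and 14.4% of all genes. The kinase gene Pfkp had a cytokine change of 0.06 with BRD0476 (adjusted p = 0.695) and 2.13 with DMSO, an interaction of -2.07 ± 0.12, while Gpd1, which links glycolysis to glycerol, had 1.89 ± 0.12 and Aldoc -1.20 ± 0.14. Antioxidant and NRF2 target genes were higher in 15 of 33 and lower in 5. The iron exporter Slc40a1 had 1.63 ± 0.10, sulfiredoxin Srxn1 1.10 ± 0.12 (0.62 as the mean of its 3 probe sets), and the metallothionein Mt2A -1.10 ± 0.19.

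Clock genes were lower in 12 of 18 and higher in 1, with a median of -0.75. Nr1d1, the nuclear receptor REV-ERB-alpha that represses the clock, had 5.47, 5.75 and 5.79 with BRD0476 and cytokines, 5.46, 5.56 and 5.72 with BRD0476 alone, 9.60, 9.66 and 8.51 with DMSO and cytokines, and 4.86, 5.34 and 5.31 with DMSO alone. The 3 arrays of DMSO with cytokines were far above the others, replicate 3 the lowest of them. The interaction was -4.0 ± 0.35 (adjusted p = 2.17e-08), or -4.37 without that array. The repressor Bhlhe41 had -1.76 ± 0.11, and Dbp, a factor whose level follows the clock, had -1.41 ± 0.14. Immediate early genes split, with 6 of 31 higher and 9 lower. Fos, a subunit of AP-1, had 5.58, 5.75 and 5.34 with BRD0476 and cytokines, 5.46, 5.11 and 5.45 with BRD0476 alone, 3.95, 3.37 and 3.43 with DMSO and cytokines, and 5.40, 5.86 and 5.13 with DMSO alone. It was lowest in DMSO with cytokines, near the bottom of the intensity scale, and the interaction was 2.10 ± 0.26 (adjusted p = 2.42e-06), 1.01 as the mean of its 2 probe sets and 0.92 with the added 32. Egr1, another such factor, had 1.28 ± 0.16, and Maff, a small MAF factor, had -2.24 ± 0.20.

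The share of beta-cell genes called was near the 33.2% of all genes: 6 of 20 in the insulin and granule list, 4 of 14 transcription factors and 10 of 26 exocytosis genes. Besides insulin, processing and granule genes, the first list holds the glucose transporter gene Slc2a2, KATP channel genes and the receptor genes Glp1r and Gipr. The insulin gene Ins1 had 14.57, 14.55 and 14.52 with BRD0476 and cytokines, 14.50, 14.58 and 14.41 with BRD0476 alone, 14.48, 14.46 and 14.49 with DMSO and cytokines, and 14.58, 14.46 and 14.55 with DMSO alone. The groups overlapped, the interaction was 0.10 ± 0.07 (adjusted p = 0.328), and the values lie at the top of the scale, since the highest intensity on these arrays was between 21844 and 24453. Ins2 had 0.22 ± 0.08 (adjusted p = 0.0475), a call that was lost under 12 of the alternatives, and Pdx1 had 0.31 ± 0.11 (adjusted p = 0.0396), lost under 10. All 6 called members of the insulin and granule list were higher, with Iapp, or amylin, at 0.36 ± 0.07 and Kcnj11, the pore of the KATP channel, at 0.36 ± 0.11 (not called as the mean of its probe sets, 0.22, adjusted p = 0.351). The list member furthest from 0, Pcsk1n, went the other way at -1.21 and was not called. Pam, which amidates peptide hormones, had 0.34 ± 0.09 from its brightest probe set and -0.01 as the mean of its 3 probe sets. Probe sets of near-identical copies such as Ins1 and Ins2 can bind each other's transcripts, which was not tested. Slc2a2, the glucose transporter, had 0.29 ± 0.08 (adjusted p = 0.00626).

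Among 14 beta-cell transcription factors 3 were called higher and 1 lower. Mafa, an activator of the insulin gene, had 11.98, 12.01 and 12.02 with BRD0476 and cytokines, 12.15, 12.23 and 12.33 with BRD0476 alone, 11.23, 11.24 and 11.43 with DMSO and cytokines, and 12.05, 11.92 and 12.01 with DMSO alone. It was lowest in DMSO with cytokines, and the interaction was 0.46 ± 0.10 (adjusted p = 0.000647). Isl1, a factor of islet development, had 0.61 ± 0.20 (0.34 as the mean of its probe sets), a call lost under 6 alternatives. Nkx6-1 had 7.83, 7.89 and 7.61 with BRD0476 and cytokines, 9.24, 9.24 and 9.50 with BRD0476 alone, 7.26, 7.54 and 7.01 with DMSO and cytokines, and 8.72, 8.89 and 8.76 with DMSO alone. Cytokines lowered it in both settings and BRD0476 alone raised it, and the interaction was -0.02 ± 0.16 (adjusted p = 0.936). Tcf7l2, a Wnt effector, went the other way, with a cytokine change of -0.32 with BRD0476 and 1.90 with DMSO and an interaction of -2.22 ± 0.21, -1.01 as the mean of its 5 probe sets. Among 26 exocytosis genes 7 were called higher and 3 lower, with the granule proteins Sytl4 and Rab27a at 1.14 ± 0.17 and 0.87 ± 0.13 (0.47 as the mean of the 3 probe sets of Rab27a) and Rab3b at -0.85 ± 0.20 (-1.04 without replicate 3 of DMSO with cytokines).

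Nitric oxide genes were split, 5 of 17 called in each direction. Nos2, the inducible nitric oxide synthase, had 5.97, 6.0 and 6.17 with BRD0476 and cytokines, 5.94, 6.12 and 6.17 with BRD0476 alone, 6.02, 6.14 and 5.78 with DMSO and cytokines, and 5.98, 5.55 and 6.11 with DMSO alone. The groups overlapped, the interaction was -0.13 ± 0.15 (adjusted p = 0.591), and no cytokine change was called on this probe set with BRD0476 (adjusted p = 0.904) or with DMSO (adjusted p = 0.496). Ass1, which regenerates arginine for the enzyme, had -1.30 ± 0.32, or -1.59 without replicate 3 of DMSO with cytokines. Sat1, which breaks down polyamines, had -1.09 ± 0.14, and Ddah2, which clears inhibitors of nitric oxide synthase, had 1.09 ± 0.12.

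Usp9x, a deubiquitinase that has been proposed as a target of BRD0476, had 9.90, 9.93 and 9.93 with BRD0476 and cytokines, 9.95, 9.83 and 10.03 with BRD0476 alone, 9.0, 9.03 and 8.97 with DMSO and cytokines, and 9.84, 10.07 and 9.81 with DMSO alone. The 3 arrays of DMSO with cytokines were below all others, which overlapped. The interaction was 0.89 ± 0.11 (adjusted p = 1.81e-06), and 0.51 as the mean of its 4 probe sets, all of the same sign. Of 28 deubiquitinases 7 were called higher (25%) and 4 lower (14.3%), near the 18.8% and 14.4% of all genes. Among them were Usp20 at 0.79 ± 0.12 and Usp25 at -1.91 ± 0.15 (0.52 and -0.95 as means of their probe sets). Proteasome and ubiquitin genes were higher in 8 of 27 and lower in 3, with the constitutive subunits Psmc6 and Psmb3 at 0.60 ± 0.13 and 0.48 ± 0.08 and Ube2l6, the enzyme that attaches ISG15, at -1.08 ± 0.08. Heat shock genes were higher in 7 of 20 and lower in 1, with Dnajb4 at 0.76 ± 0.12, Bag3 at 0.72 ± 0.13 and Hsf1 at -0.73 ± 0.23 (adjusted p = 0.0193). The call for Hsf1 was lost under 3 alternatives, and it was -0.90 without replicate 3 of DMSO with cytokines. Of 15 xenobiotic targets 1 was called higher and 2 lower, namely Aldh1a1 at 0.42 ± 0.11, Tiparp at -0.92 ± 0.10 and Abcb1a at -0.46 ± 0.11 (-0.13 with the added 32), the last at or below the lower quartile of intensities in every group. No cytosolic ribosomal protein gene was called among 21 (limma, adjusted p under 0.05), and Rpl27 was the furthest from 0 at 0.11 ± 0.07 (adjusted p = 0.259).

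**Figure D3:**
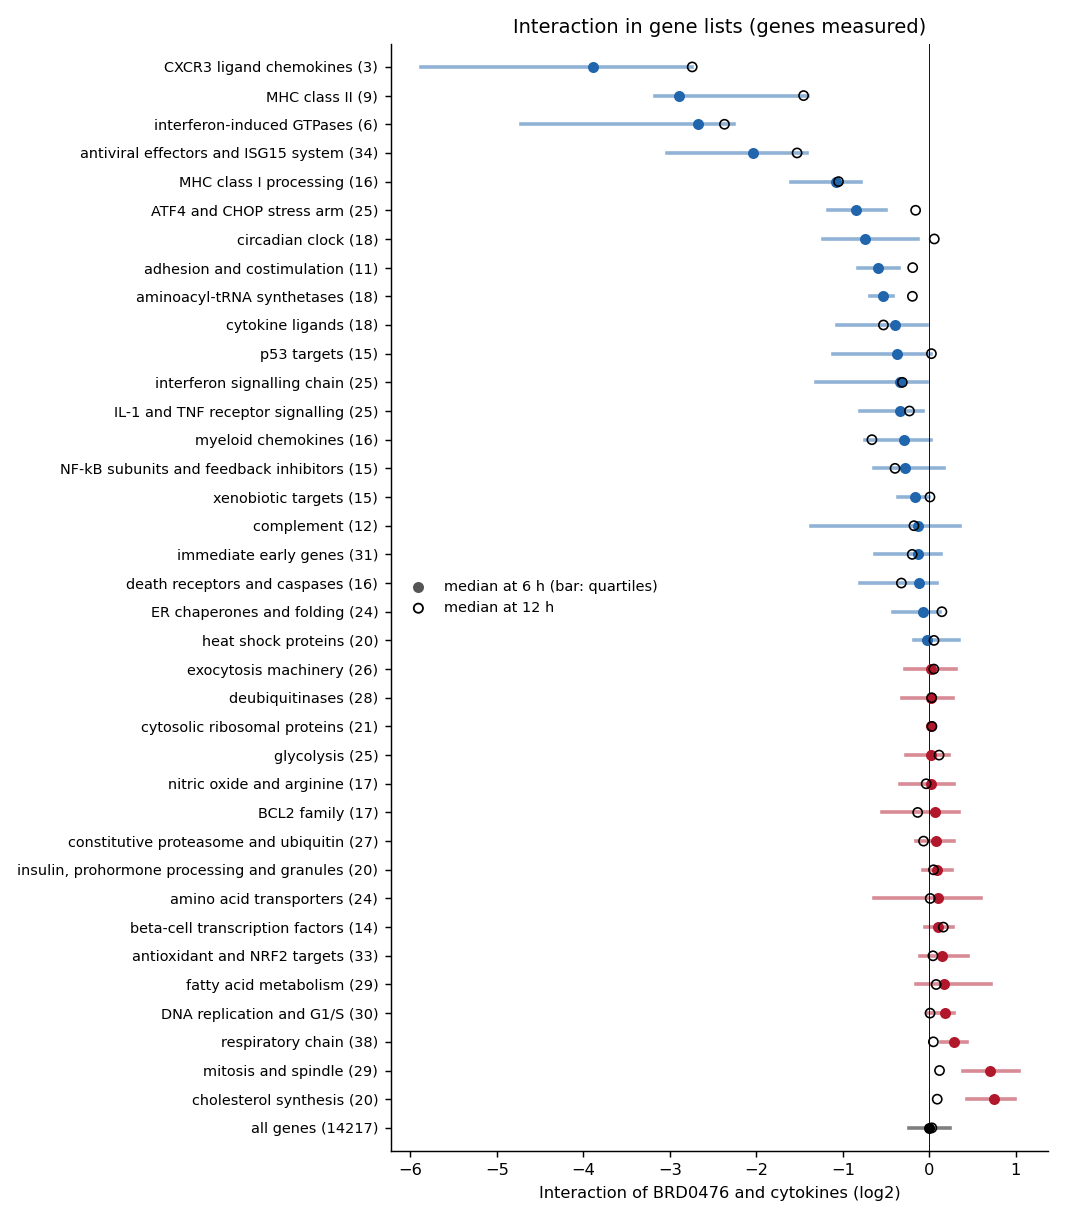
Median interaction (x axis, log2) of the genes of each list at 6 h (filled, with a bar from the lower to the upper quartile) and at 12 h (open), with the number of genes measured in brackets. All genes sit at the bottom near 0; at 6 h CXCR3 ligands have a median of -3.89 and cholesterol synthesis genes one of 0.75, and the clock list moves to 0.06 at 12 h.

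Markers of other cells gave few calls, apart from those of fibroblasts. None of 16 leukocyte markers was called (the furthest, Cd163, at -0.35 ± 0.20, adjusted p = 0.197), and their summed intensity was 246 to 264 with BRD0476 and cytokines, 248 to 267 with BRD0476 alone, 254 to 274 with DMSO and cytokines, and 225 to 260 with DMSO alone. Among fibroblast markers 2 of 15 were higher (13.3%) and 4 lower (26.7%), beside 18.8% and 14.4% of all genes. Named here are the intermediate filament gene Vim at -1.92 ± 0.22, Postn at -1.24 ± 0.28 and Pdgfra at 1.10 ± 0.16. With the added 32 these came to -1.13, -0.64 and 0.65 in that order. Their summed intensity was 618 to 657 with BRD0476 and cytokines, 828 to 924 with BRD0476 alone, 731 to 1037 with DMSO and cytokines, and 764 to 790 with DMSO alone. Of 10 endothelial markers Kdr and Esam were called higher, at 1.57 ± 0.25 (0.74 with the added 32 and 0.63 as the mean of its probe sets) and 1.07 ± 0.11, and 5 of the list were at or below the lower quartile in all groups. Their sum was 475 to 515 with BRD0476 and cytokines, 483 to 525 with BRD0476 alone, 298 to 321 with DMSO and cytokines, and 534 to 573 with DMSO alone. Of 17 exocrine and ductal markers 1 was higher and 2 lower (Krt18 at 0.68 ± 0.14, Muc1 at -1.32 ± 0.20 or -0.73 with the added 32, Cpb1 at -0.93 ± 0.11 or -0.32), and of 10 markers of other islet cells only Gcg, the glucagon gene, was called, at 0.66 ± 0.15. The islet sum was 1285 to 1341 with BRD0476 and cytokines, 1466 to 1641 with BRD0476 alone, 750 to 820 with DMSO and cytokines, and 1278 to 1540 with DMSO alone, and the exocrine sum lay between 9911 and 11721 in all 4 groups. The part of other cells in the results was not tested, and the line is labelled as a single one.

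Genes chosen by their change at 12 h give a view of the size of the interaction in which the fold changes used for the choice come from other arrays. The variance behind the choice came from the fit to all arrays, those at 6 h included. The counts of calls in these lists are therefore not independent of the arrays tested. Of 649 genes that cytokines raised at least 2-fold with DMSO at 12 h, 471 were called lower and 23 higher in the 6 h interaction, with a median of -1.0. Their median cytokine change at 6 h was 0.59 with BRD0476 and 1.66 with DMSO. In 487 of them the change with DMSO also reached 2-fold at 6 h, a choice that does use the 6 h levels. There the median share of the change kept with BRD0476 was 38.3% on the log2 scale and 19.8% on the linear scale. Of 464 genes lowered at least 2-fold at 12 h, 326 were called higher and 15 lower, with a median of 0.69. Their median cytokine change was -0.43 with BRD0476 and -1.14 with DMSO. In 282 of these the median share kept was 36.4% on the log2 scale and 46.0% on the linear scale. BRD0476 alone had median effects of 0.06 on the raised genes and -0.07 on the lowered ones.

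The interaction at 12 h, whose group means come from other arrays, was partly like that at 6 h. Over all genes the values correlated with Pearson r = 0.63 and Spearman rho = 0.46, as a description across 14217 genes. Of the 4717 genes called at 6 h 1506 (31.9%) were also called at 12 h, when 2170 of all 14217 genes were called. These 1506 are 69.4% of the 12 h calls, beside 33.2% of all genes called at 6 h, and 1410 of them had the same sign. Calls at both times used the same variance for each gene, from the fit to all arrays, so this overlap is not one of independent calls. The difference between the interactions, 12 h minus 6 h, was called for 1699 genes (12.0%), 772 higher (5.43%) and 927 lower (6.52%), and for 2131 without replicate 3 of DMSO with cytokines at 6 h. No array at 12 h was left out, although replicate 3 of DMSO with cytokines at 12 h had an array weight of 0.322. For 3 interferon-g targets no difference between the times was called. The interaction of Cxcl9 was -7.92 ± 0.33 at 12 h, with a difference of -0.05 ± 0.47 from 6 h (adjusted p = 0.967). That of Irf1 was -2.54 ± 0.16 and that of Cd74 -3.44 ± 0.18, with differences of 0.22 ± 0.22 (adjusted p = 0.605) and -0.02 ± 0.26 (adjusted p = 0.974). Tap1 was less negative at 12 h, at -2.33 ± 0.13 (difference 0.92 ± 0.19, adjusted p = 0.00264), and so was Rsad2, at -2.45 ± 0.58 (difference 2.84 ± 0.82, adjusted p = 0.0269). The call for Rsad2 was lost without replicate 1 of DMSO alone (2.58, adjusted p = 0.0535). Of the antiviral effectors 12 of 34 were called less negative at 12 h, and none more.

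Other lists differed more between the times. For clock genes the median was -0.75 at 6 h and 0.06 at 12 h, and 11 of 18 were called higher in the difference. The ATF4 and CHOP list had -0.85 at 6 h and -0.16 at 12 h, with 14 of 25 called higher and 1 lower. Mitosis genes had 0.70 at 6 h and 0.12 at 12 h, with 17 of 29 called lower, and cholesterol genes had 0.75 and 0.09 in that order of times, with 13 of 20 called lower. Among single genes Nr1d1 had -4.0 ± 0.35 at 6 h and -0.25 ± 0.35 at 12 h (difference 3.75 ± 0.50, adjusted p = 4.21e-05). Its level at 12 h was 5.94 ± 0.22 with BRD0476 and cytokines, 5.89 ± 0.27 with BRD0476 alone, 5.43 ± 0.49 with DMSO and cytokines, and 5.13 ± 0.04 with DMSO alone (SD, n = 3 each). Nfkbiz had 1.80 ± 0.18 at 6 h and -1.16 ± 0.18 at 12 h (difference -2.96 ± 0.25, adjusted p = 1.96e-07), a change of sign that Tnf and Egr1 shared. Nkx6-1, with no called interaction at 6 h, had 1.30 ± 0.16 at 12 h (difference 1.33 ± 0.23, adjusted p = 0.000558).

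**Figure D4:**
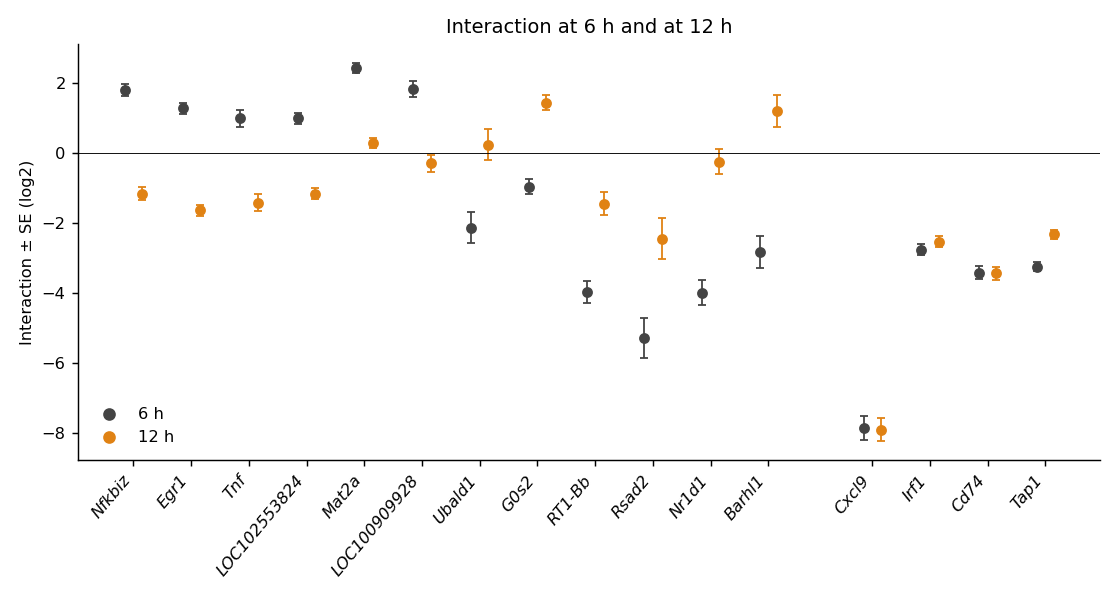
Interaction of BRD0476 and cytokines (y axis, log2, with bars of 1 standard error of the fit, 3 arrays per group) at 6 h and at 12 h for the 12 genes with the largest called differences between the times and, at the right, 4 interferon-g targets. Nfkbiz, Egr1, Tnf and LOC102553824 are above 0 at 6 h and below 0 at 12 h, G0s2 the reverse, and Cxcl9 has -7.87 at 6 h and -7.92 at 12 h.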

How the data were processed

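RNA of 24 INS-1E samples, 500 ng each, was measured on Affymetrix rat arrays with 31099 probe sets, 57 of them controls. The deposited values are linear intensities, not counts, summarised and normalized by the authors with RMA, per the submitters' processing notes (version and chip definition not given in the sources used here). Log2 of the deposited intensities was taken without a pseudocount. GEO's platform annotation gave 1 symbol to 20832 probe sets, several to 436, and the brightest probe set over all arrays stood for each of 14217 genes. limma 3.58.1 in R 4.3.3 fitted 8 group means to all 24 arrays (16 residual degrees of freedom), with empirical Bayes variances and Benjamini-Hochberg adjustment over all genes, and a call is an adjusted p under 0.05. The ± after an interaction or a change is its standard error. The script was tested on simulated data. Of 971 list members 838 were measured under a named probe set.

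Genes are named by a rule: the 12 largest called interactions in each direction, from every list the 3 called genes furthest from 0 (fewer where fewer were called, and the furthest gene where none was), the 6 largest called time differences in each direction and a short panel. The members and lists were chosen with earlier results of these data known. The alternatives were quantile normalization, centring on medians, an offset of 32, dim genes left out, each gene as the mean over its probe sets, every named probe set by itself, array weights, a variance trend, the 6 h arrays alone, a replicate block and leaving out each of the 12 arrays at 6 h. The number of arrays limits the precision: the median standard error of the interaction was 0.14, and an exact permutation test of 3 against 3 cannot go below 0.1. The labels do not say whether the replicate numbers pair the samples, and the main fit treated them as unpaired.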

Additional observations from a re-analysis of the deposited data

Results flagged for a closer look

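The interaction differed between the times, by a test of the difference (limma, adjusted p under 0.05), for 12 named genes, which are the largest called differences in either direction. As 12 h minus 6 h, the lower ones were Nfkbiz at -2.96, the early factor Egr1 at -2.93, Tnf at -2.42, LOC102553824 at -2.16, Mat2a at -2.15 and LOC100909928 at -2.13. The first 4 of these were called higher at 6 h and lower at 12 h. The higher ones were Barhl1, a homeobox gene, at 4.03, Nr1d1 at 3.75, Rsad2 at 2.84, the class II gene RT1-Bb at 2.52, G0s2, an inhibitor of fat breakdown, at 2.41 and Ubald1 at 2.38. G0s2 was called lower at 6 h and higher at 12 h. Replicate 3 of DMSO with cytokines at 6 h lay below both others for Barhl1, Nr1d1, RT1-Bb and Ubald1, and without it their interactions at 6 h were -3.27, -4.37, -4.29 and -2.56 in that order.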

How the results depend on the processing

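Of the 153 genes named, 145 were called and 137 of them were called in the same direction under every alternative fitted per gene. Over the alternatives that keep all arrays and 1 value per gene, 4548 to 5761 genes were called at 6 h, 2357 to 3092 higher and 2007 to 2669 lower, against 4717, 2666 and 2051. The 12 arrays at 6 h alone gave 4281 calls, and every named probe set by itself gave 5953 calls among 20826 probe sets. Leaving out 1 array at 6 h at a time gave 4224 to 5077 calls, 464 to 687 at -1 or lower and 309 to 373 at 1 or higher. At -1 or lower the gene fits to all arrays gave 358 to 651, against 507. At 1 or higher they gave 185, with the added 32, to 344. The time difference gave 1571 to 2793 calls, the highest with array weights, and 1452 to 2131 leaving out 1 array at 6 h; arrays at 12 h were not left out. With the added 32, the share kept by genes lowered at 12 h was 39.7%, and leaving out 1 array at 6 h gave 37.3% to 40.8% for the raised genes. As the mean of probe sets Pam turned to -0.012 and Fas to 0.083. For the interaction at 6 h a replicate block gave 4633 calls, and of the named genes it lost Ins2. The replicate numbers are no shown pairing, since correlations of same-numbered deviations lay between -0.32 and 0.25. The causes of these shifts were not tested. Dim probe sets limit fold changes near the bottom of the scale.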
